A study of Rattus norvegicus with 4 samples.

Results

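S100 proteins are small calcium-binding proteins of the EF-hand superfamily, named after the helix-loop-helix fold that holds the calcium ion. The data examined here are the levels of 10 S100 genes in rat ocular tissue, read from the rows that carry these gene symbols, among 14485 gene names in all. All 10 genes (S100a1, S100a4, S100a6, S100a8, S100a9, S100a10, S100a11, S100a13, S100a16 and S100b) had a numeric value in both tissues. The genes were selected on their values in eye and retina, already known when the set was drawn up, so their levels and differences are descriptions and no test is given for them.

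The animals were Long Evans rats, a pigmented outbred strain, of genotype Wild Type, and RNA was sequenced from their eye and from their retina, with no treatment and no age in the labels. Each library was made from RNA pooled from 5 rats. The labels name 2 technical replicates for each of the 2 tissues, and 1 column of values per tissue was analysed, called its library here, so that no value has a replicate check and no difference has a p-value. The description given for the eye samples also speaks of retina mRNA, and the tissue label was followed here.

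Values are taken as RPKM, which divides a gene's reads by the length of its gene model and the size of the library, a unit inferred from the values themselves. The total behind the scaling was 28071917 reads for the eye and 51944762 for the retina library. A fold is the eye value divided by the retina value. Its exact 95% interval, from the reads recovered for the gene, covers counting error only and compares these 2 libraries, not the tissues. The recovered reads are the smallest that fit the values, and the true reads may be a multiple of them. In that case the interval would be narrower than printed. An interval between 2 genes of 1 library also covers counting error only. It leaves out errors in the length of a gene model or in the placing of reads. A gene was compared where its value reached 1 in either library. It was called at a difference of at least 2-fold after 0.1 was added to both values. Of 13259 genes compared, 17.8% were called higher in eye and 7.95% lower, and the median log2 fold was -0.01.

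The tissue labels were checked against marker genes. Rod photoreceptor genes were present in both libraries, with 6 of 10 called lower in eye and 0 higher, and with 1 lower when totals left out lens genes and 9 lower with equal summed values. Lens genes had a summed value of 182932 in eye and 1970 in retina, and none of the 18 with a value was listed at 0 in retina. The lists for corneal and conjunctival epithelium, stroma, skeletal muscle, myelin and pigment cells had between 90.9% and 100% of their compared genes called higher in eye. In bulk RNA, fewer cells of a type and less RNA per cell cannot be told apart.

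In most S100 proteins, which work as dimers, calcium binding exposes a surface that docks on a target such as an annexin, a cytoskeletal protein or an enzyme. Some are also released from cells and act on receptors such as the receptor for advanced glycation end products (gene Ager) and Toll-like receptor 4 (gene Tlr4). Epithelia, fibroblasts, muscle, glia and white blood cells are known for different members of the family. In the retina S100b is a familiar marker of glia.

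S100a6, S100a4 and S100a11 were 3 of the genes with the largest folds, while S100a13 had a fold of 1.45 and was not called. The promoters of these genes are shown so that their start regions can be set side by side. Each runs from 250 bases before the annotated start to 50 after it, in the RefSeq annotation of the rat assembly GRCr8, on the plus strand. They lie at chr2:178398287-178398586 for S100a6, chr2:178388279-178388578 for S100a4, chr2:181874882-181875181 for S100a11 and chr2:178296770-178297069 for S100a13. Capitals mark matches on either strand to 4 motifs, which are TATAAA as a core promoter element, TGANTCA as the site of the AP-1 factors, GGGCGG as the GC box, and CCAAT.
S100a6: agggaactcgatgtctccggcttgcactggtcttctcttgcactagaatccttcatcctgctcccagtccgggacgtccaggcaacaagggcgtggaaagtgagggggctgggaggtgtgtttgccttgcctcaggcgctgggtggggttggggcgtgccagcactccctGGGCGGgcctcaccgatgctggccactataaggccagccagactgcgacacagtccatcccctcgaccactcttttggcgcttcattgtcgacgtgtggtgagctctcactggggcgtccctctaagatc
S100a4: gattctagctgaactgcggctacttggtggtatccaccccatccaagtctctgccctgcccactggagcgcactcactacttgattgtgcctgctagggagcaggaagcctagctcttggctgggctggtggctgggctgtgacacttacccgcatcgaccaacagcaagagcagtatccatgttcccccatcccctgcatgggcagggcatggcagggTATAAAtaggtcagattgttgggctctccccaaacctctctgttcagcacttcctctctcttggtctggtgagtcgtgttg
S100a11: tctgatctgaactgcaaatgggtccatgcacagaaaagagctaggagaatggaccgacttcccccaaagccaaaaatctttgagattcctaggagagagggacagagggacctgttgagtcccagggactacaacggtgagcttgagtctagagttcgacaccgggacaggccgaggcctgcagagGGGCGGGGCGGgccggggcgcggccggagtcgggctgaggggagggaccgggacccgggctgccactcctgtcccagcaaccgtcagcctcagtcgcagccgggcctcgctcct
S100a13: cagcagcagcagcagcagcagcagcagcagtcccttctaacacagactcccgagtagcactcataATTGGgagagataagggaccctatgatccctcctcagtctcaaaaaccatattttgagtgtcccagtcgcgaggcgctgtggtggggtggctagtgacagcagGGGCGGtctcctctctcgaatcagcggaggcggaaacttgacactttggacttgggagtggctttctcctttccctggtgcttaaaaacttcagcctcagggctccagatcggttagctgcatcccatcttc
The S100a4 promoter held TATAAA starting 31 bases upstream of the start, a match found in 14.3% of 27457 rat promoters of the same length. The S100a6 promoter held GGGCGG 80 bases upstream, and that of S100a11 held it at 64 and again at 59 bases upstream in overlapping copies. S100a13 had the same motif 82 bases upstream and a reverse CCAAT 185 bases upstream. GGGCGG occurred in 34.9% of all promoters, CCAAT in 37.7% and TGANTCA in 7.33%. Sequence was at hand for 7 of the 10 genes, of which 3 held GGGCGG (S100a6, S100a11 and S100a13), 2 TATAAA (S100a4 and S100a9), 2 CCAAT (S100a13 and S100b) and 0 TGANTCA. A match describes these letters only.

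With the values as deposited, all 10 genes were more abundant in eye, while S100a1 and S100a13 were more abundant in retina once summed values were made equal. Of the 8 that were compared, 6 were called higher in eye (75.0%, beside 17.8% of all genes) and 0 lower. The median log2 fold of these 8 was 2.36. S100a8 and S100a9 stayed below 1 in both libraries. These counts describe genes chosen with their values known. The plot of levels shows how far apart the libraries lay for each gene.

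**Figure D1:**
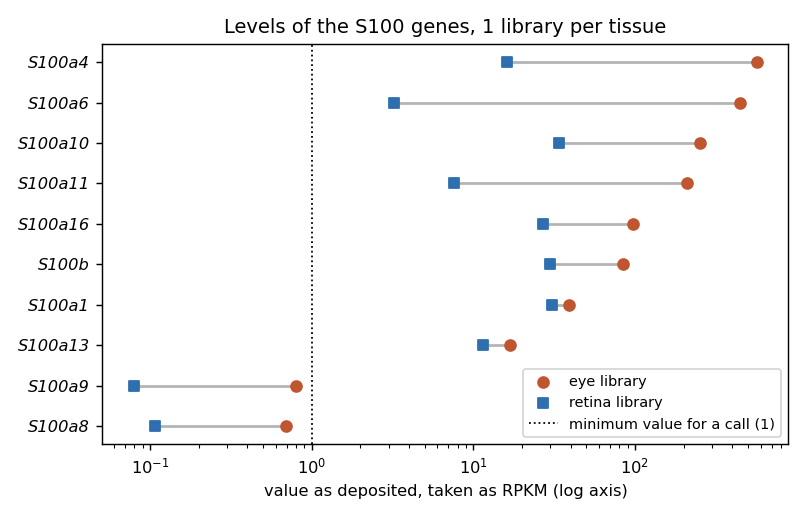
Values of the 10 S100 genes (taken as RPKM, log axis) in the eye library (circles) and the retina library (squares), 1 library per tissue, ordered by the eye value. S100a4 and S100a6 stand highest in eye at 571 and 447, while in retina S100a10 is highest at 34.1, and S100a8 and S100a9 lie left of the dotted line at 1 in both.

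S100a6 showed the widest difference. It encodes calcyclin, a protein of proliferating epithelial cells and fibroblasts. Its value was 447 in eye and 3.21 in retina, a fold of 139 (interval 109 to 180.0) that rested on as few as 5044 and 67 reads. It stood at rank 64 of all gene names in the eye library and at rank 9951 in the retina library. Its interval lay above those of S100a4 and S100a11.

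S100a4, often used as a fibroblast marker and known for binding non-muscle myosin, was the most abundant S100 gene of the eye library. It reached 571 in eye and 16.2 in retina, a fold of 35.3 (interval 27.7 to 45.8). S100a11, a partner of annexin A1 found in keratinocytes, had 209 in eye and 7.58 in retina, a fold of 27.6 (interval 22.9 to 33.6). The intervals of these folds overlap, and overlap alone neither shows nor excludes a difference between S100a4 and S100a11. The RefSeq table lists 5 pseudogenes and 2 further genes named as S100a11-like, and the handling of reads shared by near copies is unknown here, so the S100a11 value is uncertain.

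S100a10 encodes the annexin A2 partner also called p11, which is known for having lost the ability to bind calcium. It was at 254 in eye and 34.1 in retina, a fold of 7.45 (interval 6.61 to 8.42). In retina it had the highest value of the 10 genes. Its margin over S100a1 was 1.12-fold, and the interval from the recovered reads included 1 (0.966 to 1.29). It has 1 pseudogene in the RefSeq table, and its value carries the same doubt. S100a16, a widely expressed member, was at 96.9 in eye and 27.1 in retina, a fold of 3.58 (interval 3.36 to 3.82).

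Markers of the tissues known for these S100 genes differed in the same direction. The list for corneal and conjunctival epithelium had 17 of 18 compared genes called higher in eye, with summed values of 5462 and 52.0. Its most abundant genes were Krt12, the corneal keratin (2318 and 0.955), Aldh3a1, an aldehyde dehydrogenase abundant in cornea (1896 and 2.22), and Krt13, a keratin of moist epithelia (246 and 0.745). Only Ehf, an epithelial transcription factor, was listed at 0 in retina. The stroma list had 10 of 11 higher, with summed values of 2307 and 41.3 and none at 0, led by Dcn (decorin, 630 and 0.976), Col1a2 (566 and 5.25) and Col1a1 (532 and 0.625). The part of either tissue in the S100 values was not tested.

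S100b, the glial and Schwann cell member, was at 83.9 in eye and 30.0 in retina. Its fold of 2.80 (interval 2.65 to 2.95) was past the threshold with the values as deposited, but with equal summed values its log2 fold was 0.84 and it was not called. The list for Mueller glia and astrocytes had 2 of 9 genes called higher (Vim and Gfap) and 0 lower, with summed values of 2726 in eye and 2133 in retina and none at 0. With equal summed values over all genes 0 of the 9 were called higher and 2 lower. By the mean of both libraries its most abundant genes were Apoe, a lipid carrier (1114 and 816), Dkk3, a secreted Wnt modulator (423 and 529), and Clu, clusterin (453 and 322). Vim (vimentin) was at 499 and 187. The myelin and Schwann cell list had 8 of 8 higher, with sums of 243 and 33.9 and none at 0, among them Pmp22 (65.6 and 21.7) and Mbp (60.1 and 2.72). The melanocyte and pigment epithelium list also had 8 of 8 higher (sums of 1303 and 171, none at 0). By the mean of both libraries it was led by Dct (342 and 34.8), Rgr (256 and 67.4) and Tyrp1 (291 and 23.4). The part of these cell types in the S100b value was not tested.

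S100a1, known from heart and skeletal muscle and from neurons, was at 39.0 in eye and 30.5 in retina, a fold of 1.28 (interval 1.10 to 1.48). S100a13, which takes part in the release of growth factor lacking a signal peptide, was at 16.8 and 11.5, a fold of 1.45 (interval 1.13 to 1.87). These intervals overlap, which leaves the order of S100a1 and S100a13 undecided. Neither was called, and both changed direction with equal summed values, to log2 folds of -0.29 for S100a1 and -0.10 for S100a13. In the skeletal muscle list all 11 genes compared were called higher in eye, with sums of 3278 and 15.3 and none at 0. Acta1 (551 and 5.06), Mylpf (540 and 4.66) and Myl1 (466 and 0.0192) led that list. The part of muscle in the S100a1 value was not tested.

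S100a8 and S100a9 encode the subunits of calprotectin, the abundant calcium-binding complex of neutrophils and monocytes. S100a8 was at 0.698 in eye and 0.108 in retina, from as few as 7 and 2 reads, and S100a9 at 0.805 and 0.0791, from as few as 11 and 2. Their ratios of 6.48 (interval 1.23 to 63.9) and 10.2 (interval 2.22 to 94.5) carry wide intervals. Both genes stayed under the minimum and count in no call. The level ratio of S100a8 to S100a9 was 0.868 in eye (interval 0.285 to 2.45) and 1.36 in retina (interval 0.0989 to 18.8). Both intervals, from the recovered reads, included 1.

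Of 16 neutrophil genes listed, 6 had a value, and 4 of these were below 1 in both libraries. Their summed value was 11.6 in eye and 11.3 in retina. Lcn2, an iron-trapping lipocalin that epithelia also make, was at 8.93 and 3.99 and was called higher, Ngp at 1.23 and 5.78 and was called lower, and Itgam, an integrin of myeloid cells, was at 0.701 and 0.557. Ltf (lactoferrin) was listed at 0 in retina and at 0.0129 in eye. Monocyte and macrophage genes were more abundant: 11 of 13 were called higher in eye, with sums of 208 and 49.2 and none at 0. They were led by Cd74, the invariant chain of MHC class II (59.1 and 4.41), Lyz2 (31.8 and 4.32) and C1qc (20.8 and 6.10). The part of these cells in the S100a8 and S100a9 values was not tested.

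**Figure D2:**
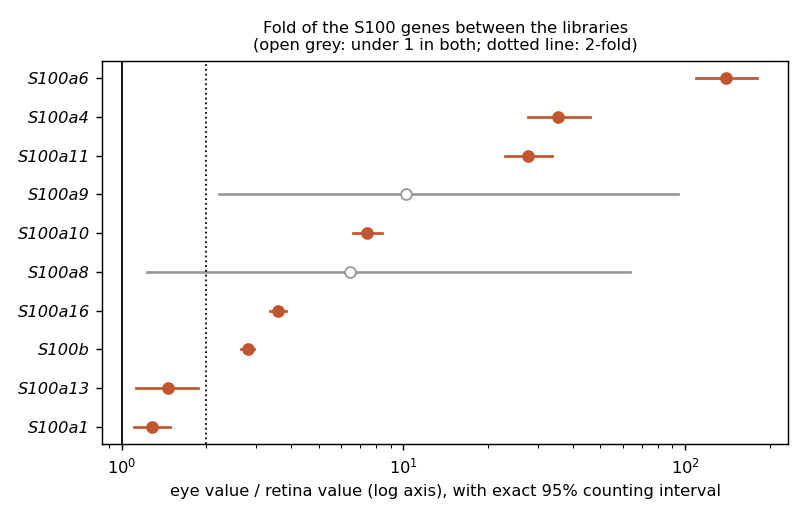
Eye value divided by retina value for the 10 S100 genes (log axis), with the exact 95% counting interval as a bar, and a dotted line at 2-fold. S100a6 lies apart at 139, the intervals of S100a8 and S100a9 (open grey, under 1 in both libraries) span more than those of the other genes, and S100a13 and S100a1 lie left of the dotted line.

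The order of levels differed between the libraries. In eye the order ran S100a4, S100a6, S100a10, S100a11, S100a16, S100b, S100a1, S100a13, S100a9 and S100a8, and 8 of the 9 steps between neighbours had an interval above 1. The exception was S100a9 against S100a8. In retina it ran S100a10, S100a1, S100b, S100a16, S100a4, S100a13, S100a11, S100a6, S100a8 and S100a9, where 6 of 9 steps had an interval above 1. S100a10, S100a1 and S100b were not separated step by step there, nor were S100a8 and S100a9. The genes were sorted by these same values, so each step was above 1 by construction. The intervals, of counting error only, are no test of the order.

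As a share of the summed S100 value, S100a4 and S100a6 together made 59.2% in eye and 12.1% in retina. S100a10, S100a1, S100b and S100a16 together made 27.6% in eye and 75.9% in retina. The sum of all 10 was 1719 in eye and 160.3 in retina, a ratio of 10.7, which is 0.329% and 0.0478% of each library's summed value. Among the 1000 highest gene names, 6 of the 10 were found in eye and 0 in retina, where the best rank was 2108. Across the 10 genes the eye and retina levels had a Spearman correlation of 0.36, given as a description over genes of the same 2 libraries.

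**Figure D3:**
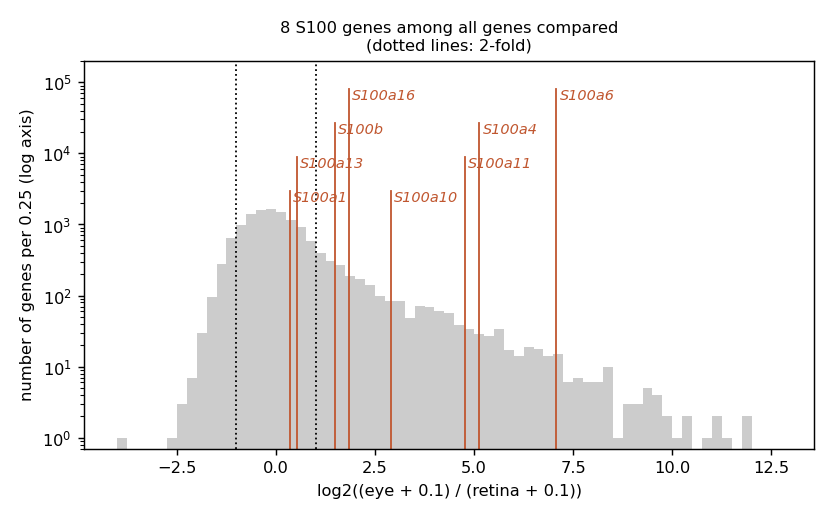
Number of genes per 0.25 of log2 fold (log axis) for all 13259 genes compared, with lines at the 8 S100 genes that were compared and dotted lines at 2-fold. S100a6 lies in the far right tail at 7.08, and S100a1 and S100a13 fall inside the 2-fold band at 0.35 and 0.54.

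Of the 10 other S100 genes listed, 4 had a value, all below 5 in both libraries. S100g, calbindin-D9k, a calcium buffer of absorptive epithelia, had a value of 4.40 in eye and was listed at 0 in retina, at least 6.17-fold higher against a floor of 3 counts in the retina library. The exact interval of its fold, which also covers the counting error of the eye reads, starts at 4.15. S100a7a, a relative of psoriasin, had 2.15 in eye and was also listed at 0 in retina, at least 3.08-fold higher by the same floor, with an exact interval that starts at 1.70, under the 2-fold threshold. S100a3, known from hair cuticle, was at 1.33 in eye and 1.99 in retina, a fold of 0.670 (interval 0.406 to 1.07). The row of S100a7l2, found under an older symbol, was at 1.31 and 1.33 without recovered reads. Thus 2 of 4 were called higher and 0 lower, from as few as 10 eye reads for S100g and 5 for S100a7a. If the true reads are a multiple of these, the floor folds and the interval starts would be higher. Genes of the fused S100 type, such as Flg and Tchh, were not analysed here.

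According to RefSeq, 9 of the 10 genes lie on chromosome 2 and S100b lies on chromosome 20. The build differs from that of the files, so only the order of protein-coding genes was used. One stretch reads S100a1, S100a13, S100a14, S100a16, S100a3, S100a4, S100a5, S100a6, S100a7a, S100a8 and S100a9, with no other protein-coding gene between them, and S100a11 and S100a10 are direct neighbours elsewhere. Along the first stretch, S100a1 and S100a13, side by side at the left end, had log2 folds of 0.35 and 0.54. S100a4 and S100a6, which flank S100a5, had 5.13 and 7.08, yet S100a3, next to S100a4, had -0.54. S100a11 and S100a10 had 4.77 and 2.89. Whether counting used the strand is unknown here, so genes that overlap a neighbour may share its reads.

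**Figure D4:**
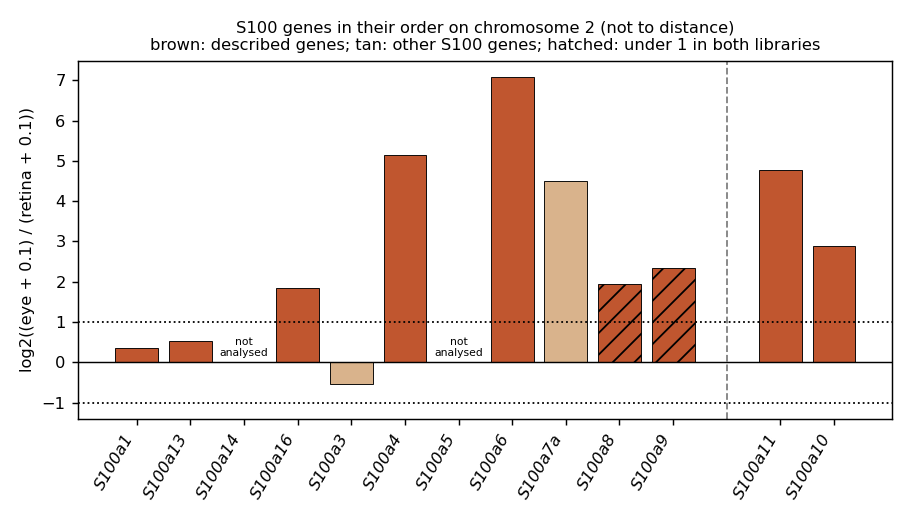
Log2 fold of the S100 genes in their order on chromosome 2 (evenly spaced, not to distance), with a dashed line between the stretch from S100a1 to S100a9 and the pair S100a11 and S100a10. Folds change from 0.35 at S100a1 to 7.08 at S100a6, with S100a3 below 0 between S100a16 and S100a4, and S100a8 and S100a9 hatched because they were under 1 in both libraries.

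The known partners of the S100 proteins were read from lists written with the study's earlier results in view. Annexins bind membranes in a calcium-dependent way, and S100 dimers bridge them. Of 6 genes in the annexin list, 5 were called higher in eye (83.3%, beside 17.8% of all genes) and 0 lower, with a median log2 fold of 2.69. Anxa2, the partner of S100a10, was at 251 in eye and 17.6 in retina, a fold of 14.3 (interval 13.5 to 15.2). The S100a10 value was 1.01 times that of Anxa2 in eye (interval 0.954 to 1.07) and 1.94 times in retina (interval 1.72 to 2.19). These intervals leave out the doubt that the pseudogene brings to the S100a10 value. Anxa1, the partner of S100a11, was at 291 and 13.6, a fold of 21.4 (interval 20.1 to 22.9). The S100a11 level was 0.718 of the Anxa1 level in eye (interval 0.682 to 0.755) and 0.557 of it in retina (interval 0.456 to 0.676). Anxa5 was at 120.0 and 20.5, a fold of 5.85, and Anxa6, a partner of several S100 proteins, at 60.1 and 36.2, was the gene of the list not called.

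The receptor list was mixed, with 3 of 5 higher (beside 17.8% of all genes) and 1 lower (beside 7.95%). Ager had 4.70 in retina against 1.56 in eye, a difference of 3.02-fold toward retina (interval 2.30 to 4.03). S100b, which can bind that receptor, had its higher value in eye instead. Tlr4, a receptor for calprotectin, was at 1.39 and 0.242, a fold of 5.73 (interval 4.02 to 8.32). Alcam, a cell adhesion receptor, had a fold of 2.50 (interval 2.28 to 2.73). Cd36, a fatty acid receptor, was the other one higher, at 1.33 in eye and 0.00755 in retina, a ratio of 176 (interval 30.8 to 7015) that rested on as few as 1 read in retina. Bsg (basigin), abundant in photoreceptors and their neighbours, was at 517 and 659 and was not called.

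Among genes of the plasmin system, to which the S100a10 complex is linked at the cell surface, 3 of 5 were higher (beside 17.8% of all genes) and 0 lower (beside 7.95%). Serpine2, a protease inhibitor, was at 73.1 and 5.69, Plat, tissue plasminogen activator, at 32.2 and 15.0, Plgrkt, a plasminogen receptor, at 4.70 and 2.93 without a call, and Plau, urokinase, at 3.79 and 0.159. Intracellular targets lay near the background, with 4 of 23 higher (17.4%, beside 17.8% of all genes) and 2 lower (beside 7.95%). Their median log2 fold was 0.22. The most abundant were Syt1, a synaptic calcium sensor (86.1 and 149), Capzb, an actin capping protein (120.0 and 87.9), Stub1 (70.5 and 75.4) and Atp2a2, the calcium pump of the endoplasmic reticulum (55.7 and 61.9), and none of these was called.

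The targets called higher, named after their values were seen, were Cacybp, Ppfibp1, Il1a and Cybb, and those called lower were Kcnk3 and Asic1. Cacybp, which binds calcyclin, had 49.4 in eye against 24.2 in retina, a fold of 2.04 (interval 1.92 to 2.18). The level of S100a6 was thus 9.04 times that of Cacybp in eye (interval 8.59 to 9.52) and 0.133 of it in retina (interval 0.102 to 0.169). Il1a, a cytokine released with S100a13, had 3.42 in eye and was listed at 0 in retina, at least 116-fold higher against a floor of 3 counts, with an exact interval that starts at 93.4. Kcnk3, a channel that p11 escorts to the membrane, was at 4.43 and 12.2, and Asic1 at 9.72 and 24.5.

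**Figure D5:**
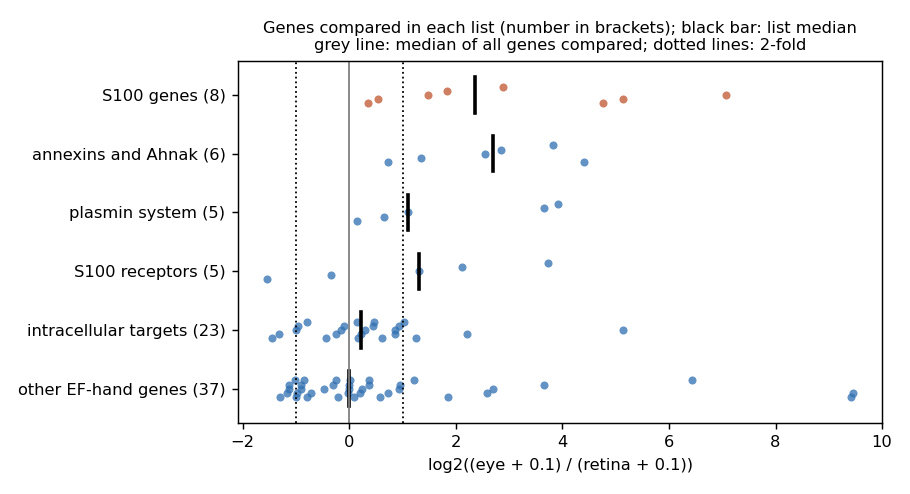
Log2 fold of each gene compared in the S100 set and in 5 lists of related genes (points, spread vertically only for clarity), with black bars at list medians, a grey line at the median of all genes and dotted lines at 2-fold. The S100 genes and the annexin list have medians of 2.36 and 2.69, while the intracellular targets and other EF-hand genes lie at 0.22 and 0.00.

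Genes of other EF-hand proteins, among them the photoreceptor calcium sensors, differed in both directions. Of 37 such genes, 8 were called higher in eye (21.6%, beside 17.8% of all genes) and 6 lower (beside 7.95% of all genes). Their median log2 fold was 0.00. Rcvrn (recoverin) had 986 in eye against 1848 in retina, and was not called. The guanylate cyclase activators Guca1b and Guca1a were at 540 and 1081 and at 338 and 685, and both were called lower. Their folds of 0.499 and 0.493 were just past the 2-fold threshold. That of Rcvrn was 0.534, so the calls differed for like folds. Of those called higher, Calml3 (149 and 0.112) and Tnnc2 (420 and 0.518) had folds of 1330 and 811. These are larger than the fold of any of the 10 S100 genes. No test sets these lists against the S100 genes, whose choice rested on their values.

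The genes nearest to S100a6 in both libraries, by distance on the log2 scale after 0.1 was added, were Mylpf, Acta1 and Ckm, at distances of 0.59, 0.71 and 0.74. Nearest to S100a1 were Gstm1, Mesdc2 and Maged2, at 0.04, 0.05 and 0.05. With 2 libraries a pattern is only a pair of values, so that nearness says little beyond a like level and fold.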

How the data were processed

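RNA of eye and retina from pooled Long Evans rats was sequenced. Per the submitters' processing notes the authors used GSNAP and HTSeq with rat genome build rn4; for versions, annotation and strand use the sources used here name nothing. The deposited values are taken as RPKM, inferred from the values: in both libraries they are whole reads divided by a whole length and 1 total per library. Of 1649 genes searched, 669 gave the eye total, and the next total that was no multiple of it came from 48. With these totals all 13980 genes searched had whole reads to within 0.02 reads. Recovery was checked on simulated data, where the intervals were tried with the true reads and not with the recovered ones.

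Files held 14533 rows, 7 with ND. Of repeated names the row with more decimals was kept. A total of 401 names with at most 5 decimals were kept without recovered reads. Folds used an added 0.1 and a minimum of 1; intervals are exact (Clopper-Pearson, 95%). The intervals cover the counting error of reads only. No molecular identifiers were used here to set apart repeated reads of 1 molecule. No test was possible with 1 column per tissue. The S100 genes, lists and alternatives were chosen with earlier results of these data known. Named were all S100 genes, the 4 most abundant genes of each partner list, the 3 most abundant of each marker list shown (both by the mean of the libraries) and the nearest genes to the S100 genes of largest and smallest fold. Cacybp and other targets, Cd36, Ltf, Ehf, Gfap, Vim, Ahnak, Calml3 and Tnnc2 were added after their values were seen. Of the genes this rule names, 2 are not reported here. Python 3.11.15 with scipy 1.17.1 was used.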

Additional observations from a re-analysis of the deposited data

How the results depend on the processing

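No paired analysis was possible because each tissue has 1 column of values. Leaving out a replicate was not possible for the same reason. Of 11 alternatives, 4 leave every fold as it is by construction. Under the 7 that can alter a fold, the direction of the 10 S100 genes was kept in 68 of 70 values. The exceptions were S100a1 and S100a13 with equal summed values, a scaling that moves the log2 fold by -0.64. Most of this agreement was fixed in advance. A different added value cannot turn around a fold above 1. Nor can the other scalings, which moved the log2 fold upward, by 0.19, 0.01 and 0.02. The S100 genes called higher numbered 6 as reported, 8 with no minimum (S100a8 and S100a9 added), 4 at a fold of 4 (without S100a16 and S100b) and 5 when summed values were made equal (without S100b), where their median log2 fold was 1.72. S100a8 and S100a9 lay below the minimum in both libraries, and the few reads recovered for them give wide intervals.

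Genes higher in eye numbered 2366 as reported, 1203 at a fold of 4, 1519 for equal summed values and 1471 with a minimum of 5; genes lower numbered 1054, and 655 with 1 added, 12 at a fold of 4, 4232 for equal summed values and 560 in totals free of lens genes. The share of called genes that were higher was 69.2% as reported, 83.4% in totals free of lens genes and 26.4% for equal summed values.

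Intracellular targets higher numbered 7 without lens genes, and 2 under each of a minimum of 5, a fold of 4 and equal summed values; those lower numbered 0 at a fold of 4 and 6 for equal summed values. Receptors higher numbered 1 with a minimum of 5, and those lower 0 at a fold of 4 or a minimum of 5. Other EF-hand genes lower numbered 0 at a fold of 4, 1 in totals free of lens genes and 13 for equal summed values. Of the other S100 genes, 0 were higher with a minimum of 5 and 1 was lower with equal summed values. A stricter minimum or fold, and a shifted scale, change these counts by construction.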
